A study of Homo sapiens with 2 samples.

Results

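The aldo-keto reductase genes described here are AKR1A1, AKR1B1, AKR1B10, AKR1C1, AKR1C2, AKR1C3, AKR7A2 and AKR7A3, 8 of the 27685 genes listed in an RNA sequencing table of human lung cancer cells. They were picked out of the table by gene symbol, and the family was chosen with earlier results of these data known. The cells were H2087 and H596, established lines that the submitters both labelled lung adenocarcinoma, grown in RPMI medium with fetal bovine serum and antibiotics and left untreated. Each line contributed 1 library of polyadenylated, strand-specific RNA, so each line stands for itself, and no treatment, genotype or time was compared. The levels were FPKM, the fragments per kilobase of transcript and per unit of sequencing depth, as deposited. Without replicates no test between the lines was possible, and a difference below is a difference between these 2 libraries. The 95% intervals cover counting error only, not the spread between cultures or preparations.

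Aldo-keto reductases are soluble enzymes that use NADPH to turn aldehydes and ketones into alcohols. Their substrates include sugars, lipid aldehydes left by peroxidation, steroids, prostaglandins, retinal and drugs with a carbonyl group. AKR1B10 and the AKR1C genes are well known as targets of NRF2, a transcription factor that KEAP1 holds in check until cells meet oxidants, and they are often abundant in lung tumours of smokers.

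The family changed its leading gene between the lines. In H2087 the most abundant member was AKR1B1, the aldose reductase that turns glucose into sorbitol, at an FPKM of 167. In H596 it was AKR1A1, the aldehyde reductase with a broad range of substrates, at an FPKM of 134. AKR1C3 and AKR7A3 were well expressed in H2087, at an FPKM of 46.3 and 24.5, and lay below an FPKM of 1 in H596. AKR1C1 and AKR7A2 were the members that differed by less than 2-fold between the lines.

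The upstream sequences of the leading gene of each line and of the close relatives were set out to show how far the genes resemble each other. Each is the 250 bases before a start of the gene in RefSeq (assembly GRCh38.p14), matched exactly at 1 place in hg19 and written in the direction of the gene. RefSeq entries were present for 7 of the 8 genes, all but AKR1B10. These genes had 10 entries, as AKR1B1, AKR1C3 and AKR7A2 had more than 1, and 1 per gene is shown. Capitals mark matches, on either strand, to 5 short motifs. The antioxidant response element core, which NRF2 binds, was searched as TGACNNNGC. The AP-1 site, bound by FOS and JUN proteins, was searched as TGANTCA. The CCAAT box, bound by the factor NF-Y, was searched by its name. The TATA box, near which many genes start, was searched as TATAA, and the GC box of SP factors as GGGCGG.
AKR1A1, chr1:46016248-46016497, plus strand: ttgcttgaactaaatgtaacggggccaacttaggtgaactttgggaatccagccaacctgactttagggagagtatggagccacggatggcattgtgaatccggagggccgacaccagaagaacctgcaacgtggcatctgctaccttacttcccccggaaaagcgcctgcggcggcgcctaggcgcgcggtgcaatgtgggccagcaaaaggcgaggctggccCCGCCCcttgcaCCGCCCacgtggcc
AKR1B1, chr7:134143853-134144102, minus strand: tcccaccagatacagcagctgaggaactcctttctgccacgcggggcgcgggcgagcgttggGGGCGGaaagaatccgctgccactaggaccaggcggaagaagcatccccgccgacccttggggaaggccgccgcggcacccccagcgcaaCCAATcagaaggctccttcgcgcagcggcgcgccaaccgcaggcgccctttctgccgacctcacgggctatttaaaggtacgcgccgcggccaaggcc
AKR7A2, chr1:19638639-19638888, minus strand: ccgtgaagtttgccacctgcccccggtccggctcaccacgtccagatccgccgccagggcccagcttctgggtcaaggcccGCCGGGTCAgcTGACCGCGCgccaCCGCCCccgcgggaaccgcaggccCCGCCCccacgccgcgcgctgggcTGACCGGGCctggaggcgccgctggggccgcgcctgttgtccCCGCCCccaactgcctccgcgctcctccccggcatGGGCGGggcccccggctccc
AKR7A3, chr1:19615265-19615514, minus strand: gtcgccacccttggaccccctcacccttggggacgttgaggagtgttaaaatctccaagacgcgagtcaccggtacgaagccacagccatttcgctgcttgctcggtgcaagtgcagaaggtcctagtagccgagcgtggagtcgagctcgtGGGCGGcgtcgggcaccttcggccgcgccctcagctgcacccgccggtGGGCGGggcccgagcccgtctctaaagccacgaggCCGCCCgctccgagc
The AKR7A2 sequence held 3 matches to the antioxidant response element core, which did not overlap one another and began 89, 150 and 161 bases before the start at their nearer end. None of the other 6 genes with an entry held one. Of 34796 human promoter windows of that length, 10.9% held the antioxidant response element core, 6.59% the AP-1 site, 32.0% the CCAAT box and 42.6% the GC box, and the TATA box was in 6616 of them. The GC box was found in AKR1A1, AKR1B1, AKR7A2 and AKR7A3, and the AP-1 site in none of the 7. The xenobiotic response element core, searched as GCGTG and not capitalised, was in AKR1B1, AKR7A2 and AKR7A3 and in 32.2% of all windows. The shares count windows with at least 1 match, and the share with 3 matches was not computed. The AKR7A2 sequence shown is 79.2% G or C. A match says only that these letters are present, and a window without one says nothing of the factor. Positions in a gap counted as not identical, here and below. AKR7A2 and AKR7A3, neighbours on chromosome 1, were identical at 50.4% of the aligned upstream positions. Less related members reached a like level in this alignment, 50.2% for AKR1B1 and AKR7A2 and 49.3% for AKR1B1 and AKR7A3. The value therefore shows no particular likeness of the AKR7A upstream sequences.

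The AKR1C genes were set out separately because they are near copies. For AKR1C2 and AKR1C3, capitals mark bases that differ from the aligned AKR1C1 base or have no AKR1C1 counterpart. AKR1C1 is plain.
AKR1C1, chr10:5005357-5005606, plus strand: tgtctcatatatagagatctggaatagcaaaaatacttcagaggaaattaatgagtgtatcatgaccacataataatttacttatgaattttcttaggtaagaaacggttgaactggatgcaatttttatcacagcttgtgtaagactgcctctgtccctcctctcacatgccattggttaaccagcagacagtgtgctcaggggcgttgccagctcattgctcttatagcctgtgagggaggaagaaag
AKR1C2, chr10:5046050-5046299, minus strand: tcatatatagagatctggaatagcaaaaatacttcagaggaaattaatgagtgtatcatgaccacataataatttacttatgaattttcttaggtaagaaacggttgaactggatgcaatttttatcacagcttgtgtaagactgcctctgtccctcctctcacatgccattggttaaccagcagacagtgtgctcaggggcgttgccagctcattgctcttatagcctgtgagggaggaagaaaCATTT
AKR1C3, chr10:5136356-5136605, plus strand: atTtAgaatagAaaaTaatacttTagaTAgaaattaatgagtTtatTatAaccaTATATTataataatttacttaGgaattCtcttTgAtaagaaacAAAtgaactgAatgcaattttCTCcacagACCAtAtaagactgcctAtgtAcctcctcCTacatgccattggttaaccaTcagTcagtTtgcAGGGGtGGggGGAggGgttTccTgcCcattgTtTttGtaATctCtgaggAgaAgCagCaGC
AKR1C1 and AKR1C2 were identical at 96.5% of aligned upstream positions, and AKR1C1 and AKR1C3 at 69.5%. The 245 identical positions of AKR1C1 and AKR1C2 form 1 unbroken stretch. Their 9 other positions lie at its 2 ends, since the 2 sequences begin and end at different places. All these AKR1C sequences held the CCAAT box on the reverse strand. The TATA box of AKR1C1 and AKR1C2 matched on the reverse strand only, 22 and 26 bases before the start at its nearer end. In the AKR1C3 sequence shown, the nearest TATA box match lay 116 bases before the start. Farther out, matches on one strand overlapped those on the other at 2 places. The AKR1C3 entry not shown, with its start at 5090973, had a TATA box match 20 bases before the start at its nearer end. It was 71.4% identical to AKR1C1. The deposited gene models begin elsewhere than the RefSeq starts used here. The nearest listed start lay 153 bases from the RefSeq start of AKR1C1, 157 from that of AKR1C2 and 38 from that of AKR1C3. For the sequences set out before these, the distance was 43 bases for AKR1A1, 92 for AKR1B1, 16 for AKR7A3 and 2 for AKR7A2. All these listed starts lay inside the sequences shown, so part of each sequence is transcribed in the deposited models.

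In coding sequence, over 969 coding bases AKR1C1 and AKR1C2 differed at 19, an identity of 98.0%. AKR1C3 was 91.4% identical to AKR1C1 and 91.0% identical to AKR1C2. AKR7A2 and AKR7A3 were 85.0% identical and AKR1B1 and AKR1B10 76.2%, whereas AKR1A1 reached at most 60.1%, with AKR1B1. These values count positions in a gap as not identical. For AKR7A2 and AKR7A3, 77 of the 161 positions not identical were substitutions and the rest lay in gaps, so 85.0% understates their likeness where both have a base. The longest stretch that AKR1C1 and AKR1C2 share without a difference is 186 bases of coding exons 7 to 9 (coding positions 784 to 969, spanning chr10:5014879-5019931), and a read inside it cannot be assigned to either by sequence.
AKR1C1 and AKR1C2, shared: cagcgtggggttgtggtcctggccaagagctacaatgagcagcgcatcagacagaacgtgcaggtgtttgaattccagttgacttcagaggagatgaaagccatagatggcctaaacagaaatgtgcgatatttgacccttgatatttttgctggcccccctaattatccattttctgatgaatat
The most different 60-base coding stretch, positions 103 to 162 in coding exon 2, has 10 differing positions, shown in capitals.
AKR1C1, chr10:5008124-5008183, plus strand: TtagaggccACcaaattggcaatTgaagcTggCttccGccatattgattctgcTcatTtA
AKR1C2, chr10:5043796-5043855, minus strand: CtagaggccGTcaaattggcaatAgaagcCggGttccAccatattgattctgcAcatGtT
Of the 75-base windows along the AKR1C1 coding sequence, 35.5% occurred exactly in another of the coding sequences compared, as did 40.8% of those of AKR1C2 and 15.3% of those of AKR1C3. The share was 8.24% for AKR1B10, 3.16% for AKR7A3, 2.89% for AKR7A2 and 0 for AKR1A1 and AKR1B1. The sequences compared were those of the 8 genes and of AKR1B15, AKR1C4, AKR1D1 and AKR1E2. AKR7L and the pseudogenes were not compared, so the shares may be higher where these are counted. Values of AKR1C1 and AKR1C2 are therefore given with their sum as well.

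**Figure D1:**
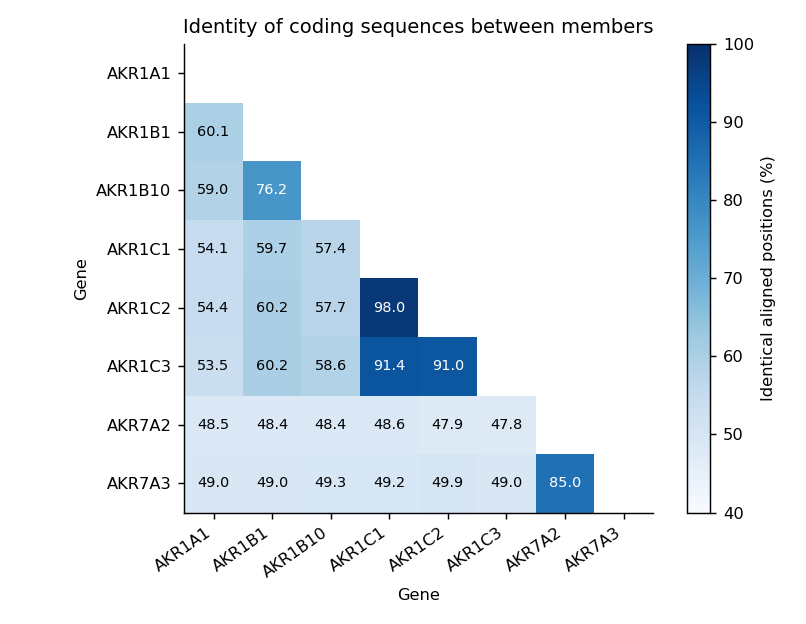
Percent of identical aligned coding positions for each pair of the 8 genes, both axes listing the genes and the colour bar running from 40 to 100%. Positions in a gap count as not identical. The AKR1C genes form 1 block at 91.0 to 98.0%, AKR7A2 and AKR7A3 reach 85.0%, and pairs between AKR7A and the rest lie between 47.8 and 49.9%.

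The estimated counts summed to 46961500 in H2087 and 55387847 in H596, and 3 counts, the limit set by a count of 0, are 6.39e-06% and 5.42e-06% of these. Of the cell type markers, the 4 epithelial genes were present in both libraries but summed to 6527 FPKM in H2087, against 894 in H596. KRT18 was at 3607 against 234, KRT8 at 2493 against 536 and EPCAM at 375 against 65.0, so these were lower in H596, as were 5 of the 8 members, while CDH1 was at 52.3 against 59.6. The lung adenocarcinoma list (5 genes) summed to an FPKM of 923 (H2087) and 609 (H596), but most of that was KRT7, and NKX2-1 stood at 110.0 against 0.508 and NAPSA at 21.95 against 0.0645. SFTPB and SFTPC, the surfactant genes, stayed below an FPKM of 1 in both. The squamous list (6 genes) summed to 40.8 in H2087, of which SOX2 was 39.1, and to 307 in H596, with TP63 at 0.183 against 55.2, and KRT5 and DSG3 at 0 counts in H2087 against 106 and 33.9 in H596. H596 therefore lacked NKX2-1 and NAPSA at the level of H2087 and carried squamous markers, against its label, and it is called H596 here. Fibroblast genes (5) summed to 3.90 and 10.7, with COL1A1 at 3.89 and 0.916, DCN at 0 and 9.77, and COL1A2 at 0 in both. Leukocyte genes (3) summed to 0.421 and 0.157, with PTPRC and CD3E at 0, and hepatocyte genes (3) to 0.0680 and 0, with ALB and TTR at 0. The part of these marker differences in the results below was not tested.

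All 8 genes passed the filter of a mean FPKM of at least 1 that left 13048 genes. The difference was taken as log2(FPKM + 1) in H596 minus H2087, and a gene was counted where it reached 1 in size, a 2-fold change on that scale. By this rule 6 of the 8 genes were counted, beside 32.4% of all genes that passed. AKR1A1 alone was higher in H596, where 18.2% of all genes were, and 5 were lower in H596 (AKR1B1, AKR1B10, AKR1C2, AKR1C3 and AKR7A3), where 14.2% of all genes were. The median difference of the 8 genes was -1.93, against 0.12 over all genes that passed. The interval of the FPKM ratio, which covers counting error only, left out 1 for 7 of the 8 genes, all but AKR1C1. The share of all genes whose interval left out 1 was not computed, so this count is not read as a trait of the family. An FPKM of at least 100 was reached by 1 of the genes in each library, beside 2.54% of the 27685 genes in H2087 and 2.30% in H596.

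**Figure D2:**
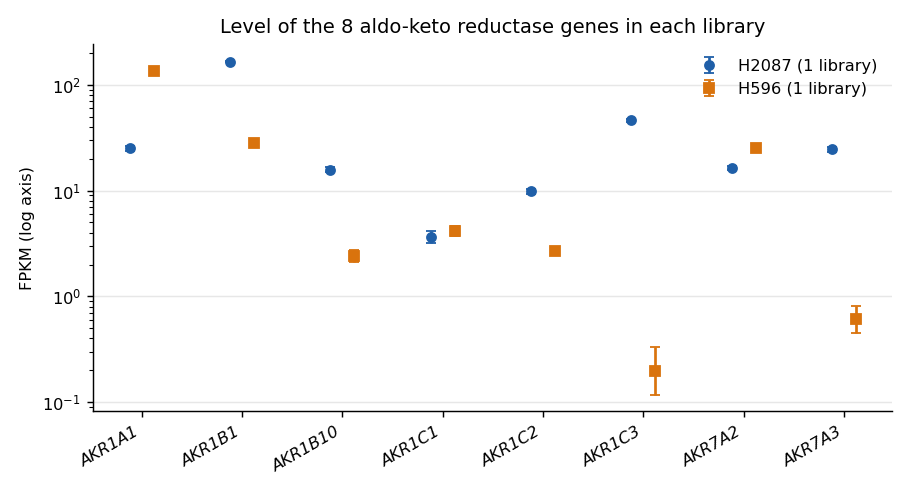
FPKM (log axis) of each gene in H2087 (circles) and H596 (squares), 1 library each, with bars for the 95% counting interval. AKR1A1 sits higher in H596, AKR1C1 overlaps between the libraries, and AKR1C3 and AKR7A3 fall from 46.3 and 24.5 to below 1.

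Together the 8 genes summed to an FPKM of 308 (H2087) and 198 (H596), a ratio of 1.56, and held 0.0485% and 0.0336% of all estimated counts. The make-up of that sum differed far more than its size. AKR1B1 gave 54.1% of the sum in H2087, against 14.3% in H596. AKR1A1 gave 8.15% in H2087 and 67.8% in H596. AKR1C3, the next largest share in H2087 at 15.0%, gave 0.0995% in H596, and AKR7A3 went from 7.96% to 0.306%. These shares do not depend on the scaling of a library.

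**Figure D3:**
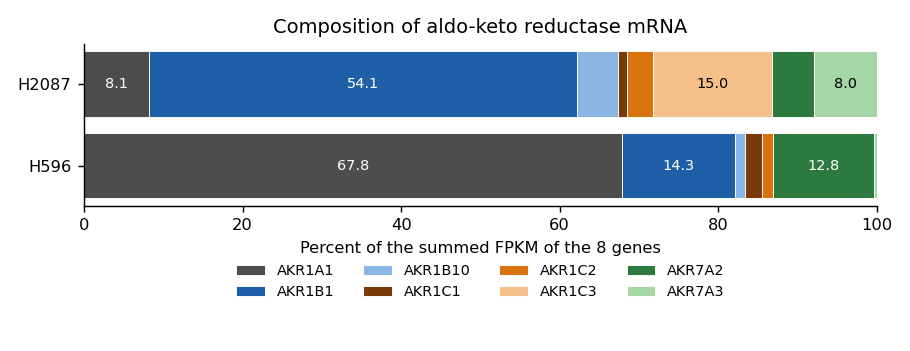
Each bar divides the summed FPKM of the 8 genes in 1 library (100%) between the genes. AKR1B1 fills 54.1% of the H2087 bar and AKR1A1 67.8% of the H596 bar.

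AKR1A1 lies at chr1:46016455-46035723 (hg19) on the plus strand and reduces a broad range of aldehydes, glucuronate among them. Its FPKM was 25.1 in H2087 (95% interval 24.0 to 26.3, 1783 counts) and 134 in H596 (132 to 137, 11328 counts). The level in H596 was 5.34-fold higher (5.08 to 5.62), a difference of 2.37 on the log2(FPKM + 1) scale, and the gene moved from rank 3097 of 27685 in H2087 to rank 446 in H596. All 4 listed transcripts were higher in H596. NM_153326 held 45.0% of the gene's FPKM in H2087 and 51.2% in H596, and NM_006066 held 27.8% and 33.1%. The 20 nearest genes that passed the filter, 10 on either side and with superfamily genes left out here and at the loci below, had a median difference of 0.42, with 5 at least 2-fold higher and 2 at least 2-fold lower in H596. They spanned chr1:45468220-46769038. For this and the loci below, 18.2% of all genes that passed were at least 2-fold higher and 14.2% at least 2-fold lower.

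AKR1B1, aldose reductase, opens the polyol pathway and is also a prostaglandin F synthase. It lies at chr7:134127102-134143991 on the minus strand. Its FPKM was 167 in H2087 (164 to 170, 11881 counts; rank 386) and 28.4 in H596 (27.3 to 29.5, 2402 counts; rank 2821). H2087 was 5.87-fold higher (5.62 to 6.14), a log2 difference of -2.51. NM_001628 held 94.955% and 92.571% of the gene's FPKM, so the listed transcript in use was the same in both libraries. Against AKR1A1 the order turned: AKR1B1 was 6.64 times AKR1A1 by FPKM in H2087, and AKR1A1 was 4.73 times AKR1B1 in H596, a 31.4-fold change of their ratio.

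AKR1B10, the intestinal and tumour-associated relative that reduces retinal and lipid aldehydes, lies beside AKR1B1 at chr7:134212344-134226166 on the plus strand. Its FPKM was 15.8 in H2087 (14.9 to 16.7, 1209 counts) and 2.41 in H596 (2.11 to 2.75, 219 counts). H2087 was 6.56-fold higher (5.67 to 7.60), a log2 difference of -2.30. The ratio of AKR1B1 to AKR1B10 by FPKM was 10.5 in H2087 and 11.8 in H596, so both were lower in H596 by a like factor. The 20 nearest other genes of this locus had a median difference of -0.30, with 6 at least 2-fold lower and 0 at least 2-fold higher in H596. AKR1B15 had an FPKM of 0.381 in H2087 (30 counts) and 0.0515 in H596 (5 counts). Its coding sequence is 86.1% identical to that of AKR1B10. Of the 143 positions not identical, 59 were substitutions and the rest lay in gaps.

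The AKR1C genes encode hydroxysteroid dehydrogenases that differ in the position of the steroid they reduce. They lie together on chromosome 10. Their levels summed to 59.8 FPKM in H2087, against 7.05 in H596, and AKR1C3 made up 77.4% of it in H2087 and 2.79% in H596. AKR1C3, which makes testosterone from androstenedione and also acts as a prostaglandin F synthase, lies at chr10:5090958-5149878 on the plus strand. Its FPKM was 46.3 in H2087 (44.6 to 48.1, 2716 counts) and 0.197 in H596 (0.117 to 0.330, 14 counts). H2087 was 235-fold higher (140.0 to 431), and the log2 difference of -5.30 ranked 32 from the lowest of the 13048 genes. NM_003739 held 97.9% of the gene's FPKM in H2087 and 79.0% in H596, where it had 11 counts.

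AKR1C2, which inactivates dihydrotestosterone, lies at chr10:5029968-5060225 on the minus strand. Its FPKM was 9.89 in H2087 (9.39 to 10.4, 1426 counts) and 2.71 in H596 (2.49 to 2.95, 530 counts), 3.65-fold higher in H2087 (3.31 to 4.05) and a log2 difference of -1.56. The difference lay in some of its transcripts. NM_001321027, which starts at the inner start site, inside the upstream sequence shown above, had an FPKM of 5.78 in H2087, 58.4% of the gene, and 0 counts in H596. NM_001135241, from that same site, had 1.65 and 0.172. NM_001354, which starts farther out, at position 5060225, had 2.47 in H2087 and 2.53 in H596, where it held 93.6% of the gene. NM_205845 was listed at 0 in both. Taken from the highest single transcript in each library, the difference of the gene was -0.94, within 2-fold. These divisions are estimates of the assembler, since the transcripts share most exons.

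AKR1C1, which inactivates progesterone, lies at chr10:5005454-5020158 on the plus strand with 1 listed transcript. Its FPKM was 3.64 in H2087 (3.21 to 4.13, 241 counts) and 4.15 in H596 (3.72 to 4.62, 325 counts). The ratio of H596 to H2087 was 1.14 (0.962 to 1.35), which covers equality, and the log2 difference was 0.15. AKR1C2 was 2.72 times AKR1C1 by FPKM in H2087, and AKR1C1 was 1.53 times AKR1C2 in H596. Summed because of their shared sequence, AKR1C1 and AKR1C2 had an FPKM of 13.5 (H2087) and 6.85 (H596), a log2 difference of -0.89, which lay within 2-fold on that scale. The 20 nearest genes outside the superfamily at the AKR1C locus, AKR1E2 thus left out, had a median difference of -0.64, with 6 at least 2-fold lower and 1 at least 2-fold higher in H596. These genes spanned chr10:180405-6627323. Of the other AKR1 genes, AKR1C4 and AKR1D1, the liver enzymes of bile acid and steroid metabolism, had 0 counts in both libraries and were not detectable at this depth.

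**Figure D4:**
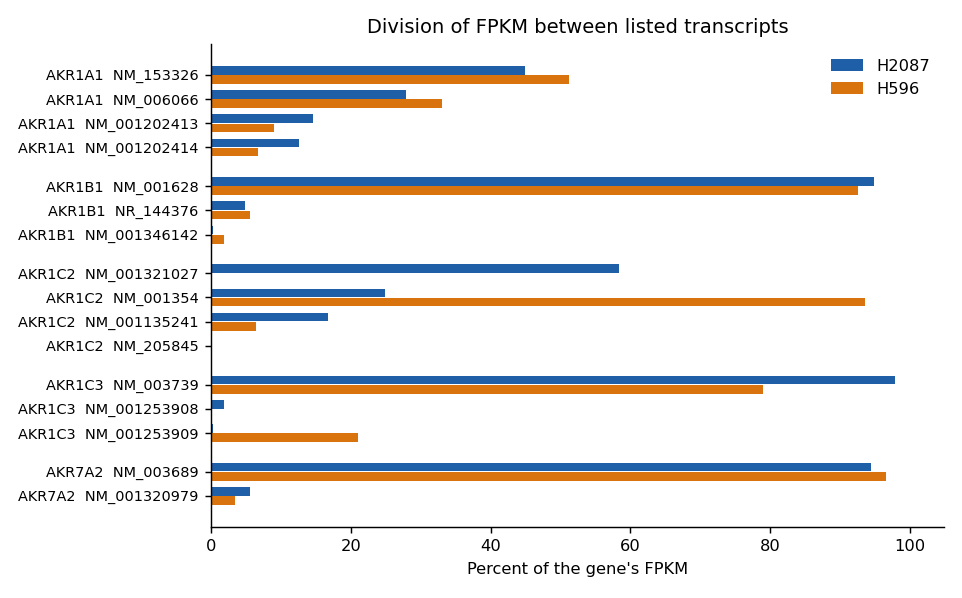
Percent of the FPKM of a gene held by each of its listed transcripts in H2087 (blue) and H596 (orange), for the genes with more than 1 listed transcript. NM_001321027 of AKR1C2 holds 58.4% in H2087 and 0 in H596, while the leading transcripts of AKR1A1, AKR1B1, AKR1C3 and AKR7A2 lead in both libraries.

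The AKR7A genes encode aflatoxin aldehyde reductases and lie next to each other on the minus strand of chromosome 1. AKR7A3, at chr1:19609057-19615280, had an FPKM of 24.5 in H2087 (23.3 to 25.8, 1459 counts) and 0.605 in H596 (0.450 to 0.815, 43 counts). H2087 was 40.5-fold higher (29.9 to 56.2), and the log2 difference of -3.99 ranked 96 from the lowest. AKR7A2, at chr1:19629202-19638640, also reduces succinic semialdehyde. Its FPKM was 16.3 in H2087 (15.6 to 17.0, 2043 counts) and 25.2 in H596 (24.4 to 26.0, 3744 counts), 1.55-fold higher in H596 (1.46 to 1.63) with a log2 difference of 0.60. AKR7A3 was thus 1.504 times AKR7A2 in H2087 by FPKM, and AKR7A2 was 41.7 times AKR7A3 in H596. The 20 nearest other genes had a median difference of 0.35, with 3 at least 2-fold higher and 1 at least 2-fold lower in H596. AKR7L, the related neighbour, had an FPKM of 1.54 and 0.367.

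Of the 10 further genes of the superfamily sought, 9 were listed and 2 passed the filter. KCNAB2, a potassium channel beta subunit with an aldo-keto reductase fold, had an FPKM of 21.6 (H2087) and 2.47 (H596), a log2 difference of -2.70. AKR1E2 had 2.09 and 1.72. KCNAB1 had 0.222 and 0.113, KCNAB3 1.19 and 0.189, and the pseudogene AKR1C8P 6 counts and 0. AKR1CL1 was not found under that symbol.

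Other genes of the same chemistry and the same regulator were set beside the family by lists. Of the 9 NRF2 regulators that passed, 1 was at least 2-fold higher and 2 were at least 2-fold lower in H596, with a median of 0.04 that became -0.08 with TMM scaling, another way to scale the libraries. NFE2L2, which encodes NRF2, had an FPKM of 42.3 (H2087) and 62.6 (H596), a log2 difference of 0.55. KEAP1, its inhibitor, had 11.8 and 46.2 (1.88). SQSTM1, which removes KEAP1, had 559.8 and 129 (-2.11), and MAFF, a small partner of NRF2, 8.19 and 3.06 (-1.18). Of the 30 further NRF2 targets that passed, of 31 listed, 15 were at least 2-fold lower and 3 at least 2-fold higher in H596, and 24 lay below 0, with a median of -0.88. Over all genes that passed, 14.2% were at least 2-fold lower and 18.2% at least 2-fold higher. The 3 higher targets were GPX2 (4.13 in H2087 and 11.6 in H596), TRIM16 (19.6 and 45.1) and CYP4F11 (1.92 and 5.31). NQO1, a quinone reductase, had 326 in H2087 and 8.24 in H596, TXNRD1, thioredoxin reductase, 499.7 and 33.2, and GCLC, the catalytic subunit of glutathione synthesis, 179 and 21.0. The members best known as NRF2 targets had differences of -2.30 (AKR1B10), 0.15 (AKR1C1), -1.56 (AKR1C2) and -5.30 (AKR1C3).

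Of the 19 other carbonyl and aldehyde enzymes that passed, of 21 listed, 4 were at least 2-fold higher and 2 at least 2-fold lower in H596, with a median of 0.29. ALDH3A1, an aldehyde dehydrogenase of epithelia, had an FPKM of 0.556 (H2087) and 398 (H596). DHRS9, a retinol dehydrogenase, had 5.11 and 111, whereas ALDH7A1, which clears lysine-derived aldehydes, had 47.2 and 0.207. Of the 6 genes of the polyol and fructose pathway that passed, of 7 listed, 2 were at least 2-fold lower (3 with TMM scaling) and 0 higher in H596, with a median of -0.88. HK1 had 59.0 and 24.0, HK2 35.2 and 15.1, and KHK, the fructose kinase, 6.99 and 3.27, beside AKR1B1 at 167 and 28.4. CBR1, CBR3 and PTGR1 stand in more than 1 of these lists. Over all genes that passed, 18.2% were at least 2-fold higher and 14.2% at least 2-fold lower in H596.

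**Figure D5:**
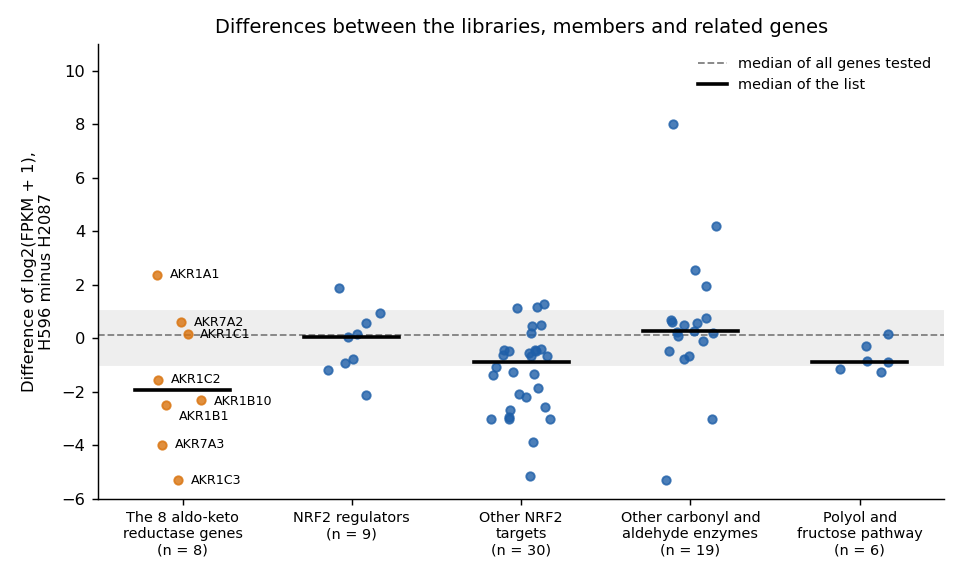
Difference of log2(FPKM + 1), H596 minus H2087, for each gene that passed the filter, with a bar at each list's median, a dashed line at the median of all genes (0.12) and grey shading for differences within 2-fold. The 8 genes range from -5.30 (AKR1C3) to 2.37 (AKR1A1), the other NRF2 targets have a median of -0.88, and the other carbonyl and aldehyde enzymes one of 0.29.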

How the data were processed

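Total RNA of untreated H2087 and H596 cells, 1 library each, was sequenced on an Illumina instrument after preparation with a stranded mRNA kit. The submitters' processing notes name bcl2fastq 1.8.4, Trimmomatic, HISAT2 2.0.5 and StringTie 1.3.3b on GRCh37 (hg19). The authors deposited estimated counts, held as whole numbers, and FPKM values for 27685 genes and 63714 transcripts, and how the counts were derived is not given in the sources used here. FPKM as deposited by the authors summed to 468269.9 in H2087 and 412390.2 in H596, and no row lacked a gene.

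Differences were taken as log2(FPKM + 1), H596 minus H2087, in genes whose mean FPKM reached 1. With 1 library per line there was no test. The share of counts held by a gene was given a 95% Wilson interval, which was carried to FPKM, and exact Clopper-Pearson intervals were used for ratios of shares. Scripts ran in Python 3.11.15 (numpy 2.4.6, pandas 2.3.3, scipy 1.17.1, biopython 1.88, matplotlib 3.10.9) and R 4.3.3 (edgeR 4.0.16, for TMM factors only), and were tested on simulated data. Coding sequences came from GENCODE release 44 mapped to GRCh37 (1 canonical transcript per gene, stop codon left out), and upstream sequences from RefSeq.

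All 8 genes and every other superfamily gene were described, and of each further list the 3 genes with the largest difference, plus NFE2L2 and KEAP1. The genes and lists were chosen with earlier results of these data known. Alternatives were other scalings (TMM, TPM, centring), a pseudocount of 0.1, other filters, transcript-level values, 2 counts per fragment for the intervals, and sums over the AKR1C genes.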

Additional observations from a re-analysis of the deposited data

How the results depend on the processing

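No paired analysis was possible because there was a single library of either line, and for that reason no library could be left out. Under the alternatives of scaling, pseudocount, filter and transcript, no member's difference changed direction. AKR1C1, AKR1C2 and AKR1C3 summed had a difference of -2.92. AKR1C1 and AKR1C2 summed, an alternative added after seeing the data, had one of -0.89. These are values of the sums, set beside 0.15 for AKR1C1 and -5.30 for AKR1C3 taken by themselves. With a mean FPKM of at least 10, 3 of the 5 members kept were at least 2-fold lower in H596, in place of 5 of 8. Of all 6708 genes kept, 941 were. AKR1B10, AKR1C1 and AKR1C2 were not among the genes kept. The AKR1C2 difference of -1.56 fell within 2-fold with the highest single transcript of each gene (-0.94), and the sum of AKR1C1 and AKR1C2 lay within 2-fold as well. The summed FPKM of 308 in H2087 became 323 with TMM scaling, 658 as TPM and 279.95 with the highest single transcripts, and the 198 in H596 became 189, 479 and 129. Over the alternatives of scaling, pseudocount, filter and transcript, differences ranged from 2.24 to 2.58 for AKR1A1, -2.64 to -2.35 for AKR1B1 and -2.66 to -2.30 for AKR1B10. They ranged from 0.03 to 0.33 for AKR1C1, -1.83 to -0.94 for AKR1C2 and -7.29 to -5.30 for AKR1C3. For AKR7A2 they ran from 0.47 to 0.79 and for AKR7A3 from -5.13 to -3.99. The median difference of all genes was 0.12 as deposited, 0.00 with TMM scaling and 0.29 as TPM, and of all genes past 2-fold 56.2%, 48.8% and 64.2% were higher in H596. The values of AKR1C3 and AKR7A3 in H596 rest on 14 and 43 counts. The intervals given above take 1 count per fragment. With 2 counts per fragment the H596 intervals were wider, 0.0953 to 0.406 for AKR1C3 and 0.409 to 0.938 for AKR7A3.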

Other observations

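Genes that work on the same steroids, prostaglandins and retinoids as the AKR1C enzymes were compared in the same way. Of 29 listed, 20 passed the filter, 7 were at least 2-fold higher and 3 at least 2-fold lower in H596, with a median difference of 0.28 on the log2(FPKM + 1) scale, and the list shares DHRS3, DHRS9 and PTGR1 with others above. HPGD, which inactivates prostaglandins, had an FPKM of 0.552 (H2087) and 28.5 (H596), a difference of 4.25. DHRS9, a retinol dehydrogenase, had 5.11 and 111, a difference of 4.20. PTGS1, the constitutive prostaglandin synthase, had 0.107 and 18.4, a difference of 4.13. These 3 had the largest differences of the list and were higher in H596, where AKR1C3 and AKR1B1 were lower. The 3 genes of the list at least 2-fold lower in H596 went the same way as AKR1C3. They were HSD17B1 (7.35 in H2087 and 0.315 in H596), HSD17B11 (27.4 and 5.89) and PTGES3 (320 and 153). A link between these differences was not tested. Over all genes that passed, 18.2% were at least 2-fold higher and 14.2% at least 2-fold lower in H596. As TPM, 8 of 22 genes of the list were at least 2-fold higher and 2 at least 2-fold lower, beside 3590 and 2004 of all 14446 genes. With TMM scaling, 6 and 3 of 20 were, beside 2039 and 2136 of all 13046 genes.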
